A study of Mus musculus with 2 samples.

Results

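Natural killer (NK) cells of the mouse liver were taken from droplet single-cell RNA sequencing of sorted liver immune cells by the unique molecular identifier (UMI) counts of a few genes, where 1 UMI stands for 1 captured transcript. Barcodes counted as cells from 500 UMI and 200 genes upwards, if mitochondrial genes gave no more than 10% of the UMI. It was called an NK cell with at least 1 UMI of Ncr1 or Klrb1c, at least 1 of Eomes, Klra4 or Klra8, at least 1 of Prf1, none of Cd3d and Cd3e, at most 1 of Ebf1 and Ms4a1, at most 1 of Siglech and under 4 of Mki67 and Top2a. These counts chose 428 of 10366 kept barcodes (4.13%; exact Clopper-Pearson 95% interval 3.75 to 4.53%). The study set mice labelled WT, which are Rcrin flox mice, beside mice labelled Rcrin KO, a conditional knockout of Rcrin in the liver. Both labels give strain RedMUC298trTg and an age of 8 weeks, and the Cre driver and number of animals are not given in the sources used here. The files of the WT and the Rcrin KO sample were identical, so all values describe 1 sample of unknown genotype. No genotypes were compared, there was no replicate and no test was made.

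NK cells are innate lymphocytes that kill infected or transformed cells without a rearranged antigen receptor. Signals from germline-encoded activating receptors are weighed against those of inhibitory receptors, many of which bind MHC class I. A triggered cell releases perforin and granzymes from cytotoxic granules and secretes interferon gamma and chemokines. The liver holds circulating NK cells, which depend on Eomes and carry Ly49 receptors, beside tissue-resident type 1 innate lymphoid cells (ILC1), which carry the same NKp46 and NK1.1 receptors without Eomes.

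The NK cells held 1939408 UMI, with a median of 3947.5 UMI and 1694 genes per cell and totals from 1401 to 23787 UMI. Their mitochondrial share had a median of 3.81%. Levels are given as UMI of a gene per 1000000 UMI of the summed class (CPM). The range in brackets after a CPM is its exact 95% Poisson interval, and that after a ratio is the exact interval conditional on the sum of both counts. Intervals cover counting error only and treat UMI as independent. Droplet data carry free RNA from other cells, so B cells (3008 barcodes gated on Ebf1 or Ms4a1 and Cd79a, median 3287.5 UMI) were read as the background.

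The label was checked with 14 NK cell markers outside the gate. Their summed level was 18885 CPM in NK cells and 56.9 CPM in B cells. In the ILC1 and CD8 T cell classes described below it was 14279 and 9486 CPM, so the sum is not particular to NK cells. Of 13 tested markers, 3 were at least 2-fold higher in NK cells than in the ILC1 class and none lower. In the CD8 contrast 5 of 13 were higher and none lower. None was at 0 in NK cells, and the share of cells with a UMI ran from 21.0% for S1pr5 to 99.5% for Nkg7. The same shares in B cells were 0.332% and 2.79%. When all kept barcodes were clustered without the gate genes, 401 of the 428 NK cells (93.7%) fell in 1 cluster of 605 barcodes. The leading genes of that cluster, by fold over the other barcodes, were Klra4, Klra8, Cma1, Prf1, Klra3, Itga2, Klri2, Ncr1, Adamts14 and Gzma. NK cells made up 66.3% of it, so the gate left out barcodes with a like profile. A further 11 NK cells lay in the cluster that held most cells of the ILC1 class described below.

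Of the gate genes, Prf1, which encodes perforin, was at 1406 CPM in NK cells. Klrb1c, which encodes NK1.1, had a UMI in 89.3% of the cells, Eomes, the T-box factor of the NK lineage, in 71.0% and Ncr1, which encodes NKp46, in 70.3%. Klra8 had one in 57.5% and Klra4 in 54.0%. Between 0 and 0.931% of B cells had a UMI of any of these 6 genes. These values describe how the cells were chosen.

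The borders of the gate differed in what lay outside them. In the 22 barcodes that failed on Prf1 alone, the Gzma level was 6475 CPM against 8831 CPM in the 29 NK cells with 1 Prf1 UMI and 11417 CPM in the 399 with more. The 190 barcodes that failed on Eomes, Klra4 and Klra8 alone had 705 CPM of Cd3g and 999.8 CPM of Xcl1, against 124 and 466 CPM in the 52 NK cells with 1 such UMI. The 22 barcodes with 1 UMI of Cd3d or Cd3e held 18.1 CPM of Trac, which encodes the T cell receptor alpha chain. The 50 barcodes with more held 268 CPM.

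A pair of neighbouring classes was gated for comparison. ILC1-gated cells (146 cells, 712187 UMI, median 4438.5 UMI) had Ncr1 or Klrb1c and Cd200r1, Cd200r2 or Cxcr6, and none of Eomes, Klra4, Klra8, Cd3d and Cd3e. CD8 effector-gated T cells (339 cells, 1537709 UMI, median 3955 UMI) had Cd3d or Cd3e, Cd8b1 and Ccl5, and none of Lef1, Ccr7 and Ncr1. No barcode was in more than 1 class. Because each class was chosen by its counts, contrasts between them are descriptions, and gate genes were left out of the counts.

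Markers of other cell types were present at low levels in the NK cells. T cell markers summed to 924 CPM in NK cells, 3006 in ILC1-gated and 5615 in CD8 effector-gated cells, with Cd4 at 0 UMI in NK cells. Of the 924 CPM, Trbc1 gave 385 and Trbc2 182, the constant regions of the T cell receptor beta chain. ILC1 markers summed to 273, 3041 and 704 CPM, and B cell markers to 95.4, 149 and 64.4 CPM against 10104 CPM in B cells. Monocyte and macrophage markers summed to 1437, 1644 and 2477 CPM, and neutrophil markers to 580, 924 and 1226 CPM. With barcodes over 10000 UMI left out, the monocyte and macrophage sums were 688, 202 and 1324 CPM and the neutrophil sums 403, 1021 and 355 CPM, so the order of the classes changed for both lists. The part of the T cell markers in the contrasts below was not tested. Of 9 markers of other innate lymphoid cells, 6 were at 0 UMI in NK cells, among them Il17a, Il22, Il13, Il5 and Il23r. The 9 summed to 214 CPM in NK, 22.5 in ILC1-gated, 150 in CD8 effector-gated and 4.53 CPM in B cells, highest in NK cells. Klrg1, described below, was the only member tested against ILC1-gated cells and was higher in NK cells.

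A few large barcodes carried much of the foreign signal. One NK barcode of 23787 UMI, not called a doublet, held 98.5% of the Ighg2b, 95.8% of the Igkc, 94.5% of the Jchain and 98.5% of the Mzb1 UMI of the class. Without it the immunoglobulin genes Ighg2b and Igkc were at 15.1 and 138 CPM in place of 982 and 3250 CPM. A barcode of 16673 UMI, called a doublet, held 36.5% of the UMI of Lyz2, the macrophage and neutrophil lysozyme gene. In all, 13 NK cells were called doublets and 15 had over 10000 UMI. Contrasts below that moved by over 1.5 times without barcodes over 10000 UMI are given with that value, except those of the 4 genes of the single barcode, which fell under 2-fold.

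NK cells differed from both neighbours at a few percent of genes. A gene was counted past 2-fold when its CPM + 5 differed by at least 2-fold, among genes with a mean of at least 50 CPM over both classes. Against ILC1-gated cells, 100 of 3333 genes (3.0%) were higher and 158 (4.74%) lower in NK cells. Against CD8 effector-gated cells, 98 of 3231 genes (3.03%) were higher and 97 (3.0%) lower. The median log2 difference over all tested genes was -0.04 against ILC1-gated and 0.02 against CD8 effector-gated cells. The 2 contrasts share the NK cells. A gene under 50 CPM in either class passed the filter only through the other class, which set its direction.

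**Figure D1:**
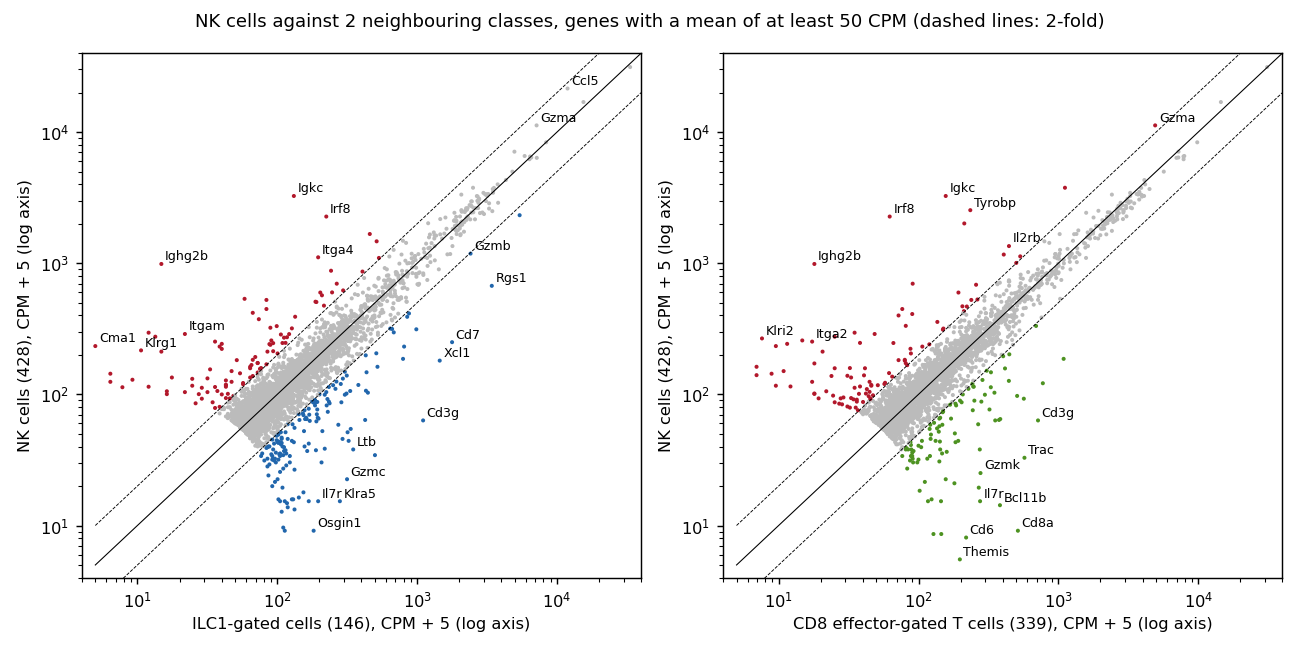
Each point is a gene, with its level in NK cells (CPM + 5, log axis) against ILC1-gated cells (left) or CD8 effector-gated T cells (right); coloured points are past the dashed 2-fold lines. Most genes lie near the diagonal, and Irf8 lies above it in both panels, at 2264 CPM in NK cells against 219 and 57.2 CPM.

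Most tested granule and death effector genes stayed within 2-fold of both neighbours. Of 15 tested members, 11 were within 2-fold of ILC1-gated cells, 1 was higher and 3 were lower, with a median log2 difference of -0.11. Over all genes, 3.0% were higher and 4.74% lower. Against the T cells, 9 of 14 were within 2-fold, 4 higher and 1 lower, beside 3.03 and 3.0% over all genes. Cma1 in both contrasts, Gzmc and Tnfsf10 against ILC1-gated cells and Gzmk against the T cells were under 50 CPM in 1 class. They passed the filter only through the class where they are high, which set their direction. Prf1 was left out as a gate gene. Gzma, which encodes granzyme A, was at 11238 CPM in NK cells (11090 to 11389), 7139 CPM in ILC1-gated and 4915 CPM in CD8 effector-gated cells. Nkg7, a membrane protein of cytotoxic granules, was at 2225, 1588 and 1779 CPM. Gzma thus passed 2-fold against the T cells, at 2.29-fold (2.23 to 2.35), and not against ILC1-gated cells, at 1.57-fold (1.53 to 1.62).

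Gzma was also more evenly spread over the NK cells. With each cell thinned to 1000 UMI, 97.7% of 428 NK cells had a Gzma UMI, against 66.9% of 145 ILC1-gated and 67.1% of 337 CD8 effector-gated cells. The quartiles were 8 and 16 Gzma UMI in NK cells, 0 and 13 in ILC1-gated cells and 0 and 10 in the T cells. Unthinned, 98.6, 69.9 and 74.6% of the cells had a UMI, against 5.59% of B cells. Both neighbours thus held cells without Gzma UMI that were nearly missing among the NK cells. The NK gate required a UMI of Prf1, another granule gene, and the neighbour gates did not. The part of that rule in the difference was not tested.

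The granule genes past 2-fold differed by member. Cma1, a chymase gene, was at 228 CPM in NK cells, 4.55 CPM in CD8 effector-gated and 0 UMI in ILC1-gated cells. It was at least 54.2-fold higher than in ILC1-gated cells, taking 3 counts over that class as the floor. Gzmb, which encodes granzyme B, was at 1179 CPM in NK cells and 2404 CPM in ILC1-gated cells, a ratio of 2.04 (1.91 to 2.17) in favour of the latter. Gzmc was at 17.5 CPM against 310 CPM, and Tnfsf10, the death ligand TRAIL, at 10.3 CPM against 163 CPM. Gzmk marked the T cells instead, at 272 CPM against 20.1 CPM in NK cells. Against those cells, 4 of 14 tested members were higher (Gzma, Cma1, Serpinb9 and Serpinb6b, the last 2 being inhibitors of granule proteases) and Gzmk alone lower.

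None of 9 tested genes of the exocytosis machinery was higher than in ILC1-gated cells. Lyst, a lysosomal trafficking regulator, was lower at 58.8 against 139 CPM. Over all genes, 3.0% were higher and 4.74% lower. None of 8 passed 2-fold against the T cells, beside 3.03% higher and 3.0% lower over all genes. Coro1a, an actin regulator of granule release, was at 687 CPM in NK and 587 CPM in ILC1-gated cells.

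**Figure D2:**
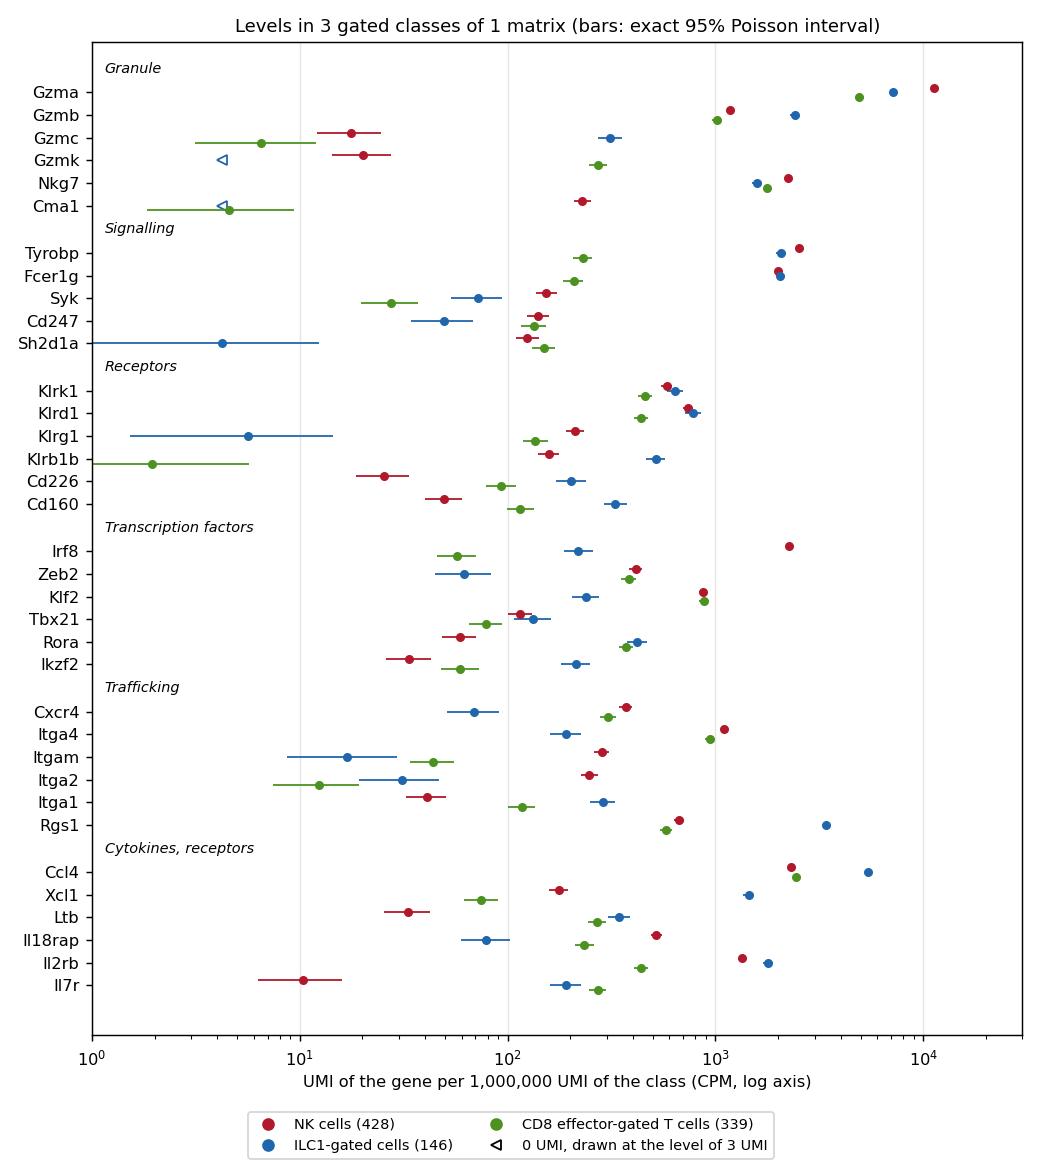
Levels (CPM, log axis) of selected genes by role in 428 NK cells, 146 ILC1-gated and 339 CD8 effector-gated T cells, with exact 95% Poisson intervals; open triangles mark 0 UMI, drawn at the level of 3 UMI. NK and ILC1-gated cells lie together for Tyrobp and Fcer1g, NK and T cells lie together for Zeb2, Klf2 and Itga4, and Irf8 sets the NK cells apart from both.

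The adaptors that couple NK receptors to kinases were shared with ILC1-gated cells. Tyrobp, which encodes the adaptor DAP12 of Ly49D and Ly49H, was at 2532 CPM in NK, 2067 CPM in ILC1-gated and 230 CPM in CD8 effector-gated cells. Fcer1g, the Fc receptor gamma chain and partner of NKp46 and CD16, was at 2005, 2053 and 207 CPM. The NK level was 11.0-fold (9.90 to 12.3) and 9.66-fold (8.62 to 10.9) that of the T cells. Without barcodes over 10000 UMI these ratios were 34.2 and 19.7, since the T cells then held 76.1 and 105 CPM.

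Of 15 tested adaptor and signalling genes, 4 (Tyrobp, Fcer1g, the kinase gene Syk and the adaptor gene Lat2) were higher than in the T cells. Another 2 were lower, among them Lat, an adaptor gene of T cell receptor signalling. The shares over all genes were 3.03 and 3.0%. Syk was at 154 CPM against 27.3, and Lat at 58.3 CPM against 349. The T cells held 11.7 CPM of Syk without barcodes over 10000 UMI, and the ratio was 12.4 in place of 5.63. Against ILC1-gated cells, 4 of 17 were higher and 2 lower, beside 3.0 and 4.74% over all genes, with a median of -0.01. Sh2d1a, which encodes the SLAM-associated adaptor SAP, was at 124 CPM in NK cells and 4.21 CPM (3 UMI) in ILC1-gated cells, a ratio of 29.5 (9.97 to 144). Cd247, the CD3 zeta chain, was at 140 and 49.1 CPM. The kinase gene Zap70 was at 81.5 against 177 CPM and the adaptor gene Lcp2 at 82.5 against 188 CPM.

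Among activating receptors, 1 of 10 tested was higher and 3 lower than in ILC1-gated cells, beside 3.0 and 4.74% over all genes. The adhesion receptor Cd2 was higher, at 281 against 101 CPM. Cd226, the DNAM-1 receptor, was at 25.3 CPM in NK cells against 202 CPM in ILC1-gated and 93.0 CPM in CD8 effector-gated cells. Cd160 was at 49.5, 330 and 115 CPM, so both genes were lowest in NK cells. The NKG2D gene Klrk1 stayed within 2-fold of both, at 583, 639 and 457 CPM. Klrb1a and Klrb1f, of the NKR-P1 receptors, and Cd244 were higher than in the T cells, where Klrb1a held 3 UMI (1.95 CPM) against 135 CPM in NK cells, a ratio of 69.2 (23.4 to 338).

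Genes listed as inhibitory receptors outside the Ly49 family divided by gene. Klrg1, a cadherin receptor of mature NK and effector T cells, was at 211 CPM in NK cells, 136 CPM in CD8 effector-gated and 5.62 CPM in ILC1-gated cells. Klrc1, which encodes NKG2A, was at 292 CPM against 675 CPM in ILC1-gated cells. Klrb1b, an NKR-P1 receptor for Clr-b, was at 157 CPM in NK cells, 515 CPM in ILC1-gated cells and 1.95 CPM (3 UMI) in the T cells. In all, 1 of 8 was higher and 4 were lower than in ILC1-gated cells, the others being Cd96 and Lilrb4a. The shares over all genes were 3.0 and 4.74%. Klrd1, the CD94 partner of NKG2A, was at 736 and 781 CPM. Against the T cells, Klri2 and Klrb1b were higher and Cd96 and Ctla4 lower. Klri2 counts here as a member of the list, and whether it inhibits was not measured.

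The Ly49 receptors are lectin-like receptors encoded by the Klra genes, which lie side by side on chromosome 6. Inhibitory members bind MHC class I on healthy cells, whereas Klra4 (Ly49D) and Klra8 (Ly49H) encode activating members, the latter known for binding a cytomegalovirus protein. Klra1, Klra3, Klra7 and Klra9, the 4 members that passed the level filter in both contrasts, were higher in NK cells than in either neighbour. The first 3 were under 50 CPM in both neighbours and passed the filter only through their NK level. Their direction was thus set by the filter, and only the size of the difference is described. The NK and ILC1 gates also used Klra4 and Klra8, whose part in these differences was not tested. Klra7 (Ly49G) was at 270 CPM in NK cells against 8.42 in ILC1-gated and 20.2 in CD8 effector-gated cells, Klra3 (Ly49C) at 238 against 35.1 and 6.50. Klra9 (Ly49I) was at 442 CPM against 78.6 and 71.5, and Klra1 (Ly49A) at 120 CPM against 1.40 (1 UMI) and 12.4.

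Klra5, which encodes the inhibitory receptor Ly49E, went the other way. It was at 10.3 CPM in NK cells (6.30 to 15.9), 275 CPM in ILC1-gated cells and 9.10 CPM in the T cells, so it was 26.7-fold (16.8 to 44.7) higher in ILC1-gated than in NK cells. Among the activating members, used by the gate, Klra4 was at 735 CPM and Klra8 at 703 CPM in NK cells. Klra4 lies at chr6:130043731-130067271, Klra8 at chr6:130115226-130129898, Klra3 at chr6:130323289-130337574 and Klra5 at chr6:129898996-129917650 in GENCODE M21 (build GRCm38), all on the minus strand. In the contrast with ILC1-gated cells, Klra7 held 88.1 in place of 32.1 times the level there once barcodes over 10000 UMI were left out.

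The promoters of Klra4 and Klra8 are shown as those of the activating members used by the gate. Those of Klra3 and Klra5 are shown because these genes went in opposite directions between NK and ILC1-gated cells. Each is 300 bases from RefSeq (GRCm38.p6), minus strand, from 250 bases before the start of the transcript to 50 after it, 5′ to 3′. RefSeq places the start of Klra5 inside the GENCODE gene and that of Klra3 just outside it, so the starts of these annotations differ. Capitals mark aligned bases that differ within the pair.
Klra4, chr6:130067222-130067521: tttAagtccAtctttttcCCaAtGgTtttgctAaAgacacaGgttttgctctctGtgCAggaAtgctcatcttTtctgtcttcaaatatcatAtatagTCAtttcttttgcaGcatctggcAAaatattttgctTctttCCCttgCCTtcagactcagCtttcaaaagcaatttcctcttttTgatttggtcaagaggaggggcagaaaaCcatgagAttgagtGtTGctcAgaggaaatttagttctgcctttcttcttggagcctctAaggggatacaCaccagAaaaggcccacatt
Klra8, chr6:130129849-130130148: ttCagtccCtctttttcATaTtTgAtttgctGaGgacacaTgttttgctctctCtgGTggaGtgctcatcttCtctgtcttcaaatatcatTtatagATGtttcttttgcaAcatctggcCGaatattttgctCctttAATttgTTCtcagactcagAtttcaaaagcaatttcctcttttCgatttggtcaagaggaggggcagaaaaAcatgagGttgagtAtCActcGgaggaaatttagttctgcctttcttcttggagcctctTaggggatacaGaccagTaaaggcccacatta
Klra3, chr6:130337577-130337876: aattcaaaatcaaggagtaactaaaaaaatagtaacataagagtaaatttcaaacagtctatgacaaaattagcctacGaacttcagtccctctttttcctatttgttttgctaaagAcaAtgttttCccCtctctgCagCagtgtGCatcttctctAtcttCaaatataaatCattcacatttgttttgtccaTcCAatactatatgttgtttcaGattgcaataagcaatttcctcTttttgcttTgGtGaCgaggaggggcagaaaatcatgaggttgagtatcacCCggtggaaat
Klra5, chr6:129913175-129913474: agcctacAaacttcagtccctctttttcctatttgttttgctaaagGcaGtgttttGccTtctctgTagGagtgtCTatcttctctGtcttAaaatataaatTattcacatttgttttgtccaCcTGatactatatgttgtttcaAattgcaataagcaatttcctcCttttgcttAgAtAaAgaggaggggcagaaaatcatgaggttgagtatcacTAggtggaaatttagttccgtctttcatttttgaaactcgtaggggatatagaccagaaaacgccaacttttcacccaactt
The Klra4 and Klra8 promoters matched at 259 of 299 aligned bases (86.6%). The Klra3 and Klra5 promoters matched at 206 of 229 aligned bases (90.0%) and differed at 23. The other 4 pairings matched at 77.0 to 84.3%. Nothing on which bases matter was measured.

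Reads of near-identical Ly49 genes can be split or lost in counting, which touches the values above. In the last 500 bases of the transcripts, where reads of a 3′ library fall, the share of 50-base windows also found in another Klra gene was 44.8% for Klra9, 42.4% for Klra3, 40.6% for Klra10 and 27.5% for Klra7. It was 13.1% for Klra8, 5.76% for Klra1, 4.66% for Klra4 and 0% for Klra5. The levels of Klra9, Klra3, Klra10 and Klra7 are therefore uncertain.

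Single NK cells carried different sets of Ly49 genes. To count them without the gate's own use of Klra4 and Klra8, 304 NK cells gated on Eomes alone were taken (median 4082.5 UMI). Klra8 had a UMI in 51.0% of them (exact 95% interval 45.2 to 56.7%), Klra9 in 50.7%, Klra4 in 48.4%, Klra7 in 46.4% and Klra3 in 38.2%. These 5 did not differ beyond their intervals, except that the interval of Klra3 (32.7 to 43.9%) ended below those of Klra8 and Klra9. Klra1 had a UMI in 14.8%, Klra6 in 9.21% and Klra10 in 4.93%, and Klra17 in 0 of 304 cells, with an exact 95% upper limit of 1.21%. In B cells the shares of Klra8, Klra4, Klra9 and Klra3 were 0.266, 0.266, 0.332 and 0.133%.

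Most cells held 1 to 4 Ly49 genes. Of the 304 cells, 10 had none, 54 had 1, 75 had 2, 82 had 3, 57 had 4, 22 had 5, 3 had 6 and 1 had 7. Thinned to 2000 UMI, 299 cells remained, of which 23 had none and 92 had 2, the most frequent number. Counts per cell miss genes with few transcripts, while free RNA and reads split between near-identical genes can add some, so these numbers are not the receptors of a cell.

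**Figure D3:**
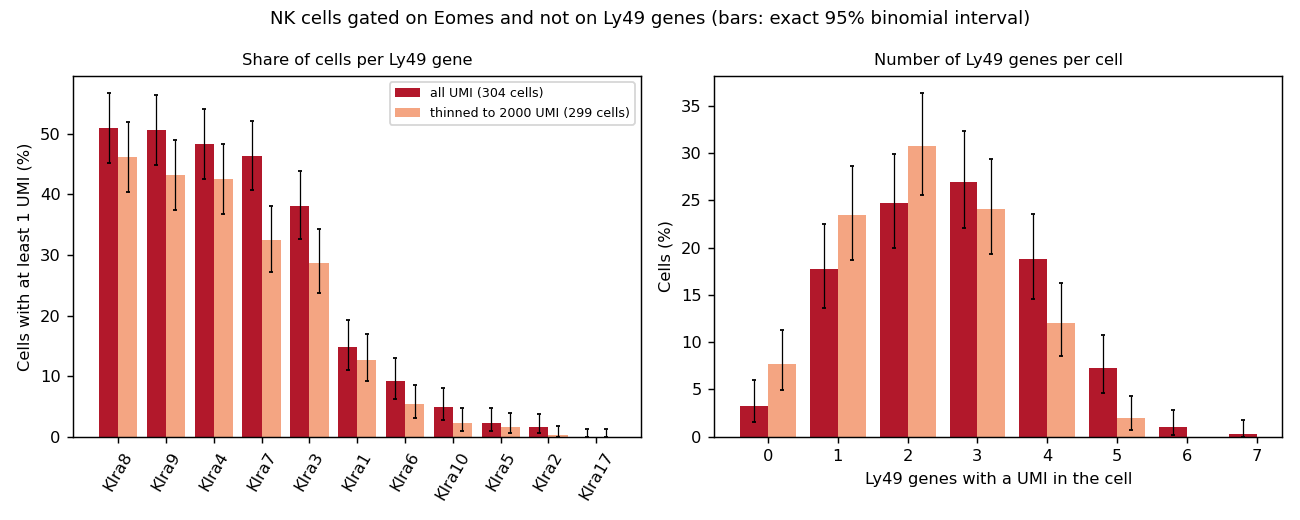
Left, the share of Eomes-gated NK cells with at least 1 UMI of each Ly49 gene (%), for all UMI (304 cells) and after thinning to 2000 UMI (299 cells). Right, the share of cells by the number of Ly49 genes with a UMI; bars are exact 95% binomial intervals, and the counts peak at 3 genes for all UMI and at 2 after thinning.

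The activating pair overlapped in single cells. After thinning, Klra8 had a UMI in 57.5% of 127 cells with Klra4 and in 37.8% of 172 cells without it. Klra9 showed the other order, with 37.8% of the cells with Klra4 and 47.1% of those without. The 38 cells with Klra1 had Klra4 in 63.2% and Klra8 in 63.2%, against 39.5 and 43.7% of the 261 cells without. Cells of 1 sample are no replicates, and these shares are a description of this matrix.

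Irf8 was higher in NK cells than in both neighbours, whereas Zeb2 and Klf2 passed 2-fold against ILC1-gated cells and not against the T cells. Irf8, an interferon regulatory factor needed in NK cell responses and in myeloid development, was at 2264 CPM (2197 to 2332) in NK cells, 219 CPM in ILC1-gated and 57.2 CPM in CD8 effector-gated cells. After thinning, 86.2% of NK cells had an Irf8 UMI against 15.9 and 1.78% of the neighbours. Unthinned, the shares were 98.4, 47.3 and 10.6%. The ratio to the T cells was 39.6 (32.0 to 49.4), or 65.5 without barcodes over 10000 UMI. B cells, which express Irf8 themselves, held 313 CPM.

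Zeb2, a repressor that acts in NK cell maturation, was at 414 CPM in NK cells, 61.8 CPM in ILC1-gated and 383 CPM in CD8 effector-gated cells. Klf2, which maintains genes of lymphocyte recirculation, was at 871, 237 and 882 CPM. Both were thus shared with the effector T cells and higher than in ILC1-gated cells. Without barcodes over 10000 UMI, ILC1-gated cells held 15.8 CPM of Zeb2 and the ratio of NK to ILC1-gated cells was 25.8 in place of 6.69.

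Of 20 tested transcription factors, 3 were higher and 5 lower than in ILC1-gated cells, beside 3.0 and 4.74% over all genes. Their median was -0.23. The 5 were Ikzf2 (33.5 against 213 CPM), which encodes Helios, Rora (58.8 against 420), Maf (102 against 425), Tox (47.4 against 205) and Hopx (94.9 against 195). Tbx21, which encodes T-bet and is used by both lineages, stayed within 2-fold at 115 and 132 CPM. Ets1 was at 1090 and 1174 CPM. Against the T cells, 1 of 19 was higher (Irf8) and 2 were lower (Hopx and Rora), beside 3.03 and 3.0% over all genes.

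Trafficking and adhesion genes differed from ILC1-gated cells in both directions. Of 21 tested members, 9 were higher and 4 lower, beside 3.0 and 4.74% over all genes, with a median of 0.80. Itga4, the alpha chain of VLA-4, was at 1104 CPM in NK and 191 CPM in ILC1-gated cells, and Itgam, which encodes CD11b, at 284 and 16.9 CPM. Cx3cr1, the fractalkine receptor gene, was at 109 and 7.02 CPM, a ratio of 15.6 (6.57 to 48.4), or 24.2 without barcodes over 10000 UMI. Cxcr4 and S1pr4, which guide cells between marrow, blood and tissue, were at 369 and 162 CPM against 68.8 and 60.4 CPM.

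The integrin pair that separates the lineages at the protein level was opposite here too. Itga2, which encodes CD49b, was at 248 CPM in NK cells and 30.9 CPM in ILC1-gated cells. Itga1, which encodes CD49a, was at 40.7 and 288 CPM. Rgs1, a regulator that dampens chemokine receptor signals, was at 667 CPM against 3412 CPM, and Cxcr3 at 14.4 against 104 CPM. Plac8 was higher in NK cells over all barcodes, at 237 against 82.8 CPM, and 28.1% of its UMI came from 1 barcode called a doublet. With those over 10000 UMI left out, it was at 63.8 CPM in NK and 67.9 CPM in ILC1-gated cells, so it left the 9 genes counted as higher, while Itgb1 joined them.

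Against the CD8 effector-gated cells, 3 of 21 tested members were higher in NK cells, among them Itga2 and Itgam. The 5 lower genes were S1pr1, Cxcr6, Cx3cr1, Itga1 and Cd69. The shares over all genes were 3.03% higher and 3.0% lower. Cx3cr1 was at 243 CPM in the T cells, above the 109 CPM of NK cells.

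Of 8 tested cytokine and chemokine genes, 3 (Xcl1, Ccl4 and Ltb) were lower in NK than in ILC1-gated cells, and none was higher past 2-fold. Over all genes, 4.74% were lower and 3.0% higher. Xcl1, a lymphotactin that attracts cross-presenting dendritic cells, was at 176 CPM in NK cells (158 to 196) against 1445 CPM. Ccl4 was at 2318 against 5399 CPM and Ltb, the lymphotoxin beta gene, at 33.0 against 344 CPM. Ccl5, the most abundant chemokine transcript of the list in NK cells, was at 21476 against 11887 CPM, a ratio of 1.81. After thinning, 9.35% of NK cells and 69.0% of ILC1-gated cells had an Xcl1 UMI (21.3 and 92.5% unthinned, and 0.432% of B cells). Against the T cells, Xcl1 was higher at 2.35-fold, while Ifng (124 against 282 CPM) and Ltb were lower.

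Cytokine receptor genes differed by ligand. Il18rap and Il18r1, the chains of the interleukin 18 receptor, were at 520 and 168 CPM in NK cells against 78.6 and 67.4 CPM in ILC1-gated cells. Il7r was at 10.3 CPM against 191 CPM in ILC1-gated and 271 CPM in CD8 effector-gated cells. Il21r was at 39.2, 319 and 187 CPM. Il2rb, the interleukin 2 and 15 receptor chain on which NK cells depend, was at 1346 CPM in NK cells, 1783 CPM in ILC1-gated and 438 CPM in the T cells.

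Of 20 tested genes of this list, 3 were higher and 3 lower than in ILC1-gated cells, beside 3.0 and 4.74% over all genes. The lower genes were Il7r, Il21r and Socs2, a suppressor of cytokine signalling, at 4.12 against 108 CPM, or 2.32 against 117 CPM without barcodes over 10000 UMI. Without barcodes over 10000 UMI, 5 were lower, with Ifnar2 and Jak2 added. Against the T cells, 5 of 20 were higher and 2 lower, beside 3.03 and 3.0% over all genes. The 5 included Il12rb2 at 129 against 28.0 CPM, a chain of the receptor for interleukin 12, and Stat3 at 464 against 201 CPM.

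Each of the cell state lists held 1 gene past 2-fold against ILC1-gated cells. The shares over all tested genes were 3.0% higher and 4.74% lower in NK cells. With lists this small, these counts do not set them apart from all genes. Of 8 tested interferon response genes, only Isg15 was past 2-fold, at 21.7 CPM in NK cells against 128 CPM in ILC1-gated cells. Of 15 immediate early genes, only the NF-kB inhibitor gene Nfkbia was, at 615 against 291 CPM. Of 13 glycolysis and growth genes, only Pfkp, a phosphofructokinase, was, at 241 against 88.5 CPM. Its log2 difference was 0.79 after thinning, which is under 2-fold. Ifi27l2a, an interferon-inducible gene, was at 117, 208 and 769 CPM in NK, ILC1-gated and CD8 effector-gated cells. In the contrast with the T cells, 2 of 7 interferon response genes were lower in NK cells, Ifi27l2a and Ifi206 (131 CPM in the T cells, 2.61 times the NK level), with a median log2 difference of -0.83. Of 15 immediate early genes, 1 was lower than in the T cells, the activation marker gene Cd69 at 84.6 against 193 CPM, and none of 11 glycolysis and growth genes passed 2-fold. Once barcodes over 10000 UMI were left out, Ifi27l2a was at 53.4, 168 and 730 CPM, 13.7-fold higher in the T cells than in NK cells and 3.14-fold higher in ILC1-gated than in NK cells.

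The genes with the largest differences over the whole table held further members of these groups. Against ILC1-gated cells, the 12 highest in NK cells included Ighg2b, Cma1, Igkc, Mzb1, Klra7, Klrg1, Klra1, Rap1gap2, Jchain, Sh2d1a and Itgam. Rap1gap2, a regulator of the GTPase Rap1, was at 108 CPM against 2.81 CPM (2 UMI), a ratio of 38.6 (10.5 to 320). The 4 immunoglobulin-linked genes are those of the single barcode above. The 12 lowest were Osgin1, Klra5, Cd3g, AC163354.1, Gzmc, Il7r, Socs2, Tcrg-C4, Tnfsf10, Inpp4b, Ltb and Slc16a10. Osgin1, an oxidative stress response gene, was at 4.12 against 177 CPM, and Cd3g, a CD3 chain outside the gate, at 58.3 against 1098 CPM.

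Against the T cells the 12 highest were Ighg2b, Irf8, Klri2, Cma1, Klrb1b, Klra3, Igkc, Klrb1a, Atp1b1, Mzb1, Itga2 and Adamts14. Klri2, a lectin-like receptor gene, was at 262 against 2.60 CPM, a ratio of 101 (39.1 to 371). Atp1b1, a sodium pump subunit, was at 253 against 9.75 CPM. The 12 lowest were Cd8a, Themis, Cd6, Bcl11b, Il7r, Trac, Cd5, Cxcr6, Gm8369, Cd3g, Gzmk and Klk8. Bcl11b, a factor of T cell commitment, was at 9.28 CPM in NK cells against 377 CPM, and Themis, a regulator of T cell receptor signalling, at 0.516 CPM (1 UMI) against 192 CPM.

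Genes of mature and less mature NK cells, as listed, mostly differed in opposite directions between NK and ILC1-gated cells. Over all genes, 3.0% were higher and 4.74% lower in NK cells. Of 13 tested mature genes, 10 were higher and 2 (Gzmb and S100a4) lower in NK cells, with a median log2 difference of 2.65. Lgals1, which encodes galectin 1, was at 1665 against 454 CPM and Ly6c2 at 530 against 53.4 CPM. Of 13 tested less mature genes, 8 were lower and 1 higher, with a median of -2.49. Cd7 was at 245 CPM in NK cells against 1772 CPM, and Inpp4b, a phosphatase gene, at 8.25 against 128 CPM. Of the mature genes, Itgam, Klrg1, Cx3cr1 and Cma1 were under 50 CPM in ILC1-gated cells. Of the less mature genes, Il7r, Inpp4b, Ltb, Cxcr3 and Cd160 were under 50 CPM in NK cells. The filter set the direction of these genes, and so part of the counts and medians. Xcl1 and Il7r are also on the list of ILC1 markers. Against the T cells the median was 0.18 over 14 mature genes, with 3 higher and 2 lower. It was -0.82 over 12 less mature genes, with 2 higher and 5 lower. Over all genes, 3.03% were higher and 3.0% lower than in the T cells.

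NK cells mature from a Cd27-positive to an Itgam-positive state, and the gate used neither gene. By UMI, 38 of the 428 NK cells (8.88%) held Cd27 only, 35 (8.18%) both, 243 (56.8%) Itgam only and 112 (26.2%) neither. A cell without a UMI may still express the gene. After thinning to 1000 UMI, the share with Itgam only was 26.9%. Median totals were 5086, 4864, 3810 and 3707.5 UMI, so the cells with Cd27 were deeper. Differences in depth were not tested as a source of what follows.

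Cd27-only cells differed from Itgam-only cells at few genes. Among 1678 genes with a mean of at least 100 CPM, 28 (1.67%) were at least 2-fold higher and 38 (2.26%) lower in Cd27-only cells, with a median log2 difference of 0.02. Without barcodes over 10000 UMI, 35 and 236 cells remained, and 21 and 25 genes passed. They included 18 of the 28 and 18 of the 38 genes. Among the 38, Ighg2b, Mzb1, Igkc and Lyz2 had the largest folds and left the call without the large barcodes. The genes named next kept it unless stated.

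Genes of less mature NK cells were higher in Cd27-only cells. Of 5 tested members, 4 were higher and none lower, beside 1.67 and 2.26% over all genes, with a median log2 difference of 2.08. Emb, an adhesion molecule gene, was at 992 CPM (865 to 1133) in Cd27-only cells, 713 CPM in cells with both genes and 182 CPM in Itgam-only cells. Cd7 was at 737, 384 and 139 CPM, a ratio of 5.31 (4.22 to 6.69) between the ends. Xcl1 was at 382, 253 and 86.9 CPM and Ctla2a, a cysteine protease inhibitor gene, at 801, 506 and 211 CPM. In each of these 4 genes the cells with both lay between the other 2 classes.

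Genes of mature NK cells were higher in Itgam-only cells. Of 10 tested members, 6 were lower in Cd27-only cells and none higher, beside 2.26 and 1.67% over all genes, with a median of -1.20. Cma1 was at 31.9 CPM in Cd27-only cells, 116 CPM in cells with both and 292 CPM in Itgam-only cells, a ratio of 9.16 (4.39 to 23.0). Klrg1 was at 63.7, 101 and 256 CPM and Zeb2 at 182, 233 and 500 CPM. Ly6c2, a surface antigen gene, was at 205, 202 and 590 CPM, Spn, which encodes the sialophorin CD43, at 237, 349 and 584 CPM, and Klf2 at 455, 713 and 988 CPM. The members within 2-fold were Gzmb, Itgb1, Lgals1 and Irf8, of which Irf8 was at 1370, 1896 and 2496 CPM. Cx3cr1, below the level filter, held 1 UMI in Cd27-only cells (4.55 CPM) against 142 CPM in Itgam-only cells, a ratio of 31.1 (5.50 to 1237).

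**Figure D4:**
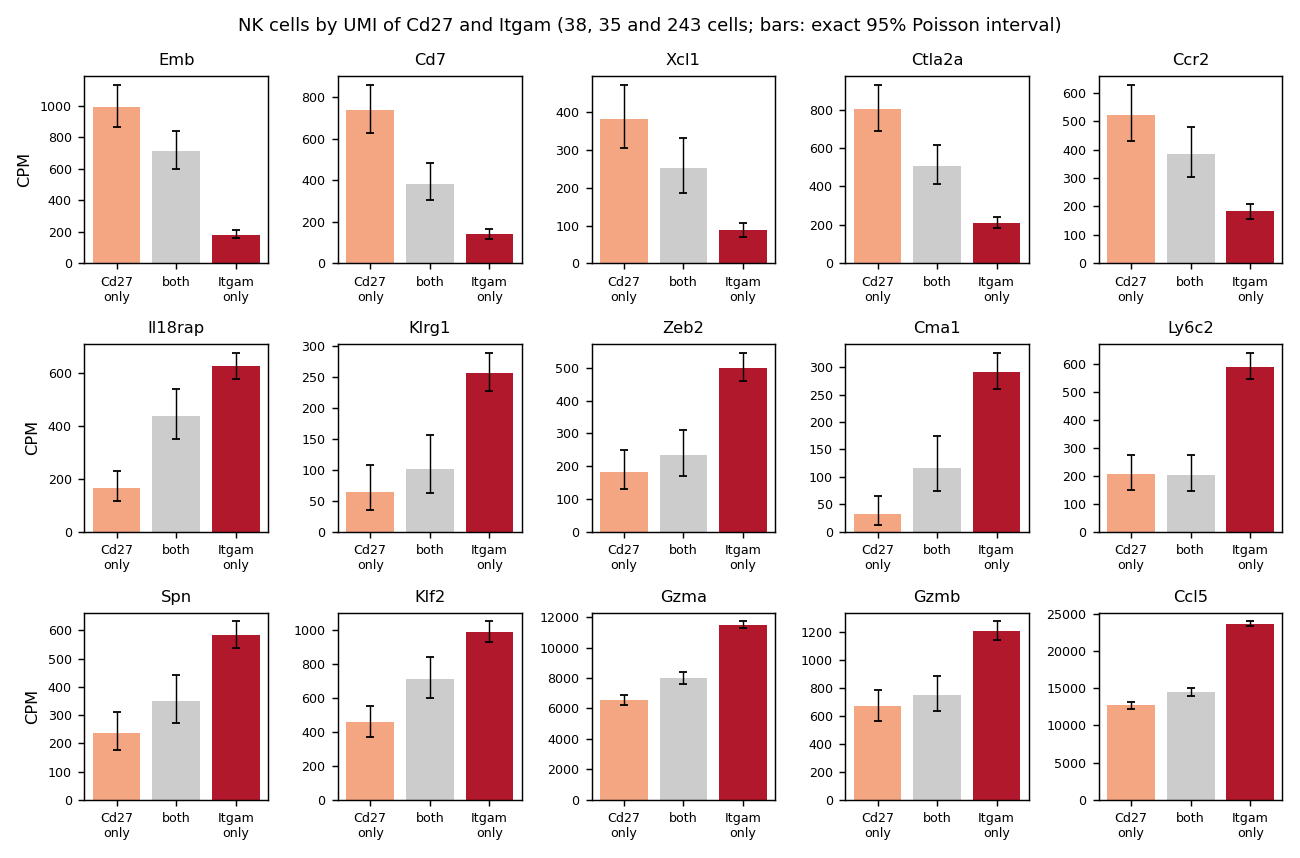
Levels (CPM, with exact 95% Poisson intervals) in NK cells with a UMI of Cd27 only (38 cells), of both genes (35) and of Itgam only (243). Emb, Cd7, Xcl1, Ctla2a and Ccr2 step down from left to right, and Klrg1, Zeb2, Cma1, Spn, Klf2, Il18rap, Gzma, Gzmb and Ccl5 step up.

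The main effector genes stayed within 2-fold and were lowest in Cd27-only cells. Gzma was at 6550, 8013 and 11509 CPM, Gzmb at 669, 753 and 1210 CPM and Ccl5 at 12672, 14453 and 23667 CPM in the Cd27-only, both and Itgam-only cells. Of 13 tested granule and death genes, 2 were lower past 2-fold, Cma1 and Fasl, the death ligand gene at 137 against 305 CPM. Over all genes, 2.26% were lower and 1.67% higher in Cd27-only cells. Nkg7 was alike at 1944 and 2173 CPM. Il18rap was at 164 against 624 CPM, a ratio of 3.81 in favour of Itgam-only cells. Of 15 tested trafficking genes, 2 were higher in Cd27-only cells, among them Ccr2, a receptor for inflammatory chemokines, at 523 against 182 CPM. Plac8 was lower there over all barcodes (127 against 332 CPM) and 3.11-fold higher without barcodes over 10000 UMI.

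The 112 cells with neither gene were nearer the Itgam-only cells in some of these values. Their Zeb2 was at 402 CPM, Klrg1 at 227 CPM, Cma1 at 225 CPM, Emb at 238 CPM and Cd7 at 194 CPM. Their Gzma, at 14225 CPM, lay above all 3 other classes, and their Xcl1, at 248 CPM, near that of the cells with both. Other less mature genes, below the level filter and chosen after their values were seen, differed. Thy1, at 88.6 CPM, was nearer Cd27-only (91.0) than Itgam-only cells (37.8), as were Ltb (62.7 against 68.3 and 15.1) and Tcf7 (64.8 against 95.6 and 19.8). Cxcr3, at 4.32 against 50.1 and 13.2 CPM, was not. Eomes was at 350, 415, 332 and 372 CPM in Cd27-only, both, Itgam-only and neither cells. The gate used Eomes, so these levels are partly set by the choice of cells. Tbx21, outside the gate, was at 91.0 and 70.8 CPM in Cd27-only and both cells. It was at 124 and 125 CPM in Itgam-only and neither cells, with overlapping intervals. No tested Ly49 gene passed 2-fold between Cd27-only and Itgam-only cells.

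How evenly a gene was carried varied at a given level. Among 131 genes at 500 to 1000 CPM in NK cells, the median share of cells with a UMI was 88.1%. The lowest shares belonged to Ighg2b at 6.78%, which is the single barcode, then Ly6c2 at 38.6%, Klra4 at 54.0%, Klra8 at 57.5%, the chemokine gene Ccl3 at 59.1% and S100a6, a calcium-binding protein gene, at 60.7%. The top barcode held 2.43% of the Ly6c2 UMI, 1.47% of Klra4 and 2.05% of Klra8, so these 3 were spread over many cells and not from 1 barcode. The gate used Klra4 and Klra8, so their shares and ranks here are partly set by it. In the 304 NK cells gated on Eomes alone, they had a UMI in 48.4 and 51.0%. Klrd1 at 736 CPM and Klre1 at 721 CPM, both chosen after their values were seen, had a UMI in 92.1 and 90.7% of NK cells. The corresponding shares in B cells were 1.13 and 0.964%.

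**Figure D5:**
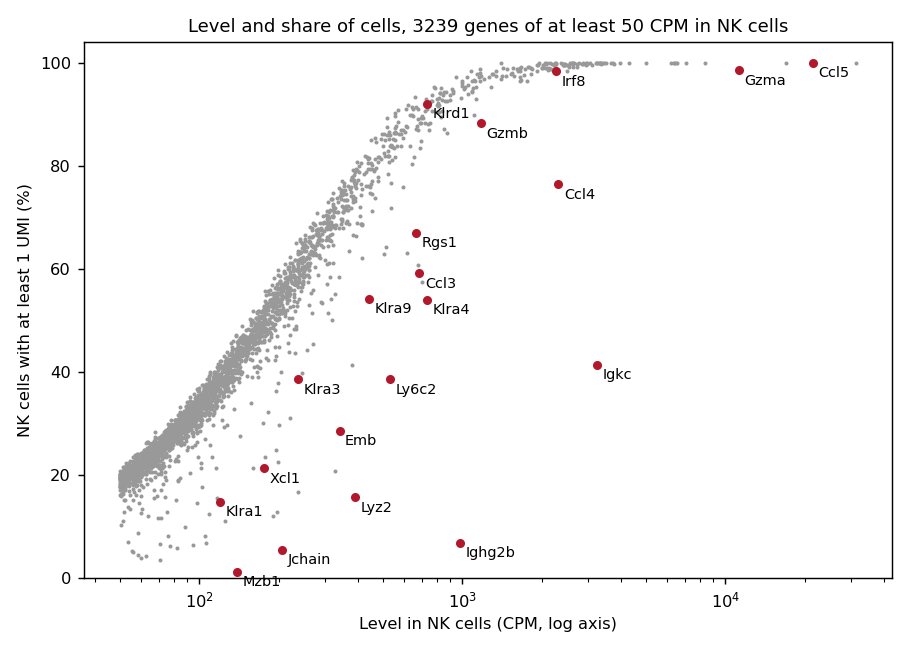
Each point is 1 of 3239 genes with at least 50 CPM in NK cells, by its level (CPM, log axis) and the share of the 428 NK cells with at least 1 UMI (%); named genes are in red. Klrd1 lies on the main band, while Klra4, Ly6c2 and Ccl3 lie below it, and Ighg2b, Jchain and Mzb1 owe their place to 1 barcode. Klra4 was used by the gate, which partly sets its share.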

How the data were processed

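Liver immune cells were profiled by 10x Chromium single-cell RNA sequencing. The deposited matrix holds raw UMI counts per gene and barcode, per the file headers written by software version 3.0.0. The submitters' processing notes name Cell Ranger 2.1.1, STAR, Seurat 2.3.4 and mm10, without roles. The sort gate and the rule for calling cells are not given in the sources used here. The files of both samples were identical and were read once: 11192 barcodes, 31053 genes and 67037274 UMI (502 to 93990 per barcode).

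UMI were summed per gated class and scaled to CPM (Python 3.11.15, numpy 2.4.6, scipy 1.17.1, pandas 2.3.3). Log2 differences used a pseudocount of 5 CPM. Intervals (95%) cover counting error only, and the floor for a count of 0 was 3 counts over the class. The summing and calling steps were checked on simulated data. Clusters came from scanpy 1.11.5 (2000 variable genes, 30 components, 15 neighbours, Leiden resolution 1.0). Scrublet called 351 of 10366 barcodes doublets, and they were kept, with their removal as an alternative. Thinning drew 1000 UMI per cell, or 2000 for the Ly49 sets.

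Named genes were drawn, per list, from the 3 largest folds either way against ILC1-gated cells and the 2 highest levels. Added to these were the 12 largest folds each way per contrast and 4 each way between Cd27-only and Itgam-only cells. Other genes were named after their values were seen. The members and gene lists were chosen with earlier results of these data known. Alternatives were the mitochondrial limit, the gate, doublets, the scaling, the filter, thinning and, added after seeing the data, leaving out barcodes over 10000 UMI. Some genes that enter the counts are not reported here by name.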

Additional observations from a re-analysis of the deposited data

How the results depend on the processing

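No paired analysis was possible because the files of both samples were identical, which also leaves no replicate to leave out. With a mean of at least 20 CPM as the filter, 172 genes were higher and 293 lower in NK than in ILC1-gated cells, and 184 higher and 188 lower than in CD8 effector-gated cells. After thinning, 186 genes were higher in NK than in ILC1-gated cells, with 80 of the 100 shared, and the share of NK cells with Itgam only was 26.9%. Without barcodes over 10000 UMI, the log2 difference of NK over CD8 effector-gated cells turned from 4.38 to -0.10 for Igkc, from 3.36 to -0.35 for Jchain and from 4.01 to -0.36 for Mzb1. Among 99 of the 170 named ratios that were past 2-fold, these were the 3 of 945 alternative values that reversed. In addition, 17 values in 16 ratios came under 2-fold. After thinning, these included Pfkp (log2 0.79), Cd247 (0.84) and Lcp2 (-0.57) of NK over ILC1-gated cells. At 5% mitochondrial UMI, they included Xcl1 (0.83) and Cx3cr1 (-0.95) of NK over CD8 effector-gated cells. Ratios within 2-fold could change sign, as AC163354.1 of NK over CD8 effector-gated cells did, from a log2 difference of 0.15 to -0.67 after thinning. NK cells numbered 350 of 4982 barcodes (7.03%) at 5% mitochondrial UMI, 415 without doublets, 450 without the Prf1 rule and 363 with at least 2 UMI of Ncr1 and Klrb1c. Genes with few UMI in a class are limited by depth, as their intervals show.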
